A study of Ceratopteris richardii with 15 samples.

Results

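Among the RNAs of the fern Ceratopteris richardii, 153 of the 88641 genes in the deposited table were high both in the root behind its tip and in the leaf tip, and lower in the root tip and in the leaf behind its tip. The members were chosen from mean TPM, a measure of transcript abundance that corrects for gene length and sums to 1000000 per library. Root had to be at least 2 times root tip and leaf tip at least 2 times leaf. Root and leaf tip both had to average at least 5 TPM and lie within 4-fold of each other, and the 3 root libraries had to lie within 2-fold. The shoot tip was left free. Because 153 is under the limit of 300 genes, none was dropped by rank.

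The 5 tissues, each with 3 libraries, were shoot tip, root without its tip, root tip, leaf tip and leaf without its tip. All came from wild type RNWT1 sporophytes at 50 days after spore germination, grown from spores on diluted MS medium in a growth chamber, so genotype, age and growth conditions were shared by all groups. No label says that the libraries of a tissue came from separate plants, and the spread between them may be technical. The 3 leaf columns could not be tied to single leaf samples and are called leaf a, b and c.

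Fern roots, leaves and shoots grow from an apical cell at the tip of each organ. The root apical cell gives off the root cap and the root body, and cells elongate, form root hairs and mature into vascular and ground tissue behind it. A fern leaf also grows at its tip, so the tip is its youngest part, while the lower parts mature and photosynthesise. The members were thus higher in the older zone of the root and in the younger zone of the leaf.

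The identifiers are those of an assembly made with Trinity and carry no gene names. Of the 36816 genes of the reference table for this species, 0 matched any identifier, so no function, position or sequence can be given for a member, and no tissue could be checked against marker genes. Every tissue is a mixture of cell types, in which fewer cells of a type and less RNA per cell cannot be told apart.

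Both conditions on the ratios and the minimum level were met by 235 genes. The 4-fold limit between root and leaf tip left 186, and the limit on the root libraries left 153. All 153 passed the filter for testing, which asked for at least 1 TPM in 3 or more libraries and kept 39490 genes. The members nearest to each limit had a root over root tip ratio of 2.01, a leaf tip over leaf ratio of 2.00, a level of 5.04 TPM, a balance between root and leaf tip of 3.93 and a root spread of 1.98. The nearest genes outside had 1.99, 1.99, 4.88 TPM, 4.08 and 2.01. Of the 33 genes that failed the root spread alone, 32 had root replicates 1 and 2 within 2-fold, and replicate 3 was the lowest in 23 and the highest in 9.

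Replicate 3 of root differed from the other 2 root libraries. Over all tested genes, root libraries correlated at 0.971 to 0.993 and the libraries of the other tissues at 0.990 to 0.995. Among the members, replicate 3 was the lowest root library in 109 genes (71.2%) and the highest in 32 (20.9%), with a median log2 difference of -0.36 to the mean of replicates 1 and 2. Among the 12244 other genes that met the same level, balance and spread conditions, it was the lowest in 52.2% and the highest in 32.9%, with a median of -0.05. The rule used these libraries, so the values are a description.

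The members were mostly of moderate abundance. Their median level was 11.8 TPM in shoot tip, 16.2 TPM in root, 5.43 TPM in root tip, 13.2 TPM in leaf tip and 4.90 TPM in leaf. The smaller of the root and leaf tip means was under 10 TPM for 62 genes, from 10 to under 50 TPM for 81 and at least 50 TPM for 10. Together the members held 0.375% ± 0.0017 of the shoot tip's summed TPM (SD, n = 3, as for each tissue). The share was 0.503% ± 0.043 for root against 0.163% ± 0.0014 for root tip, and 0.394% ± 0.0012 for leaf tip against 0.125% ± 0.00087 for leaf.

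**Figure D1:**
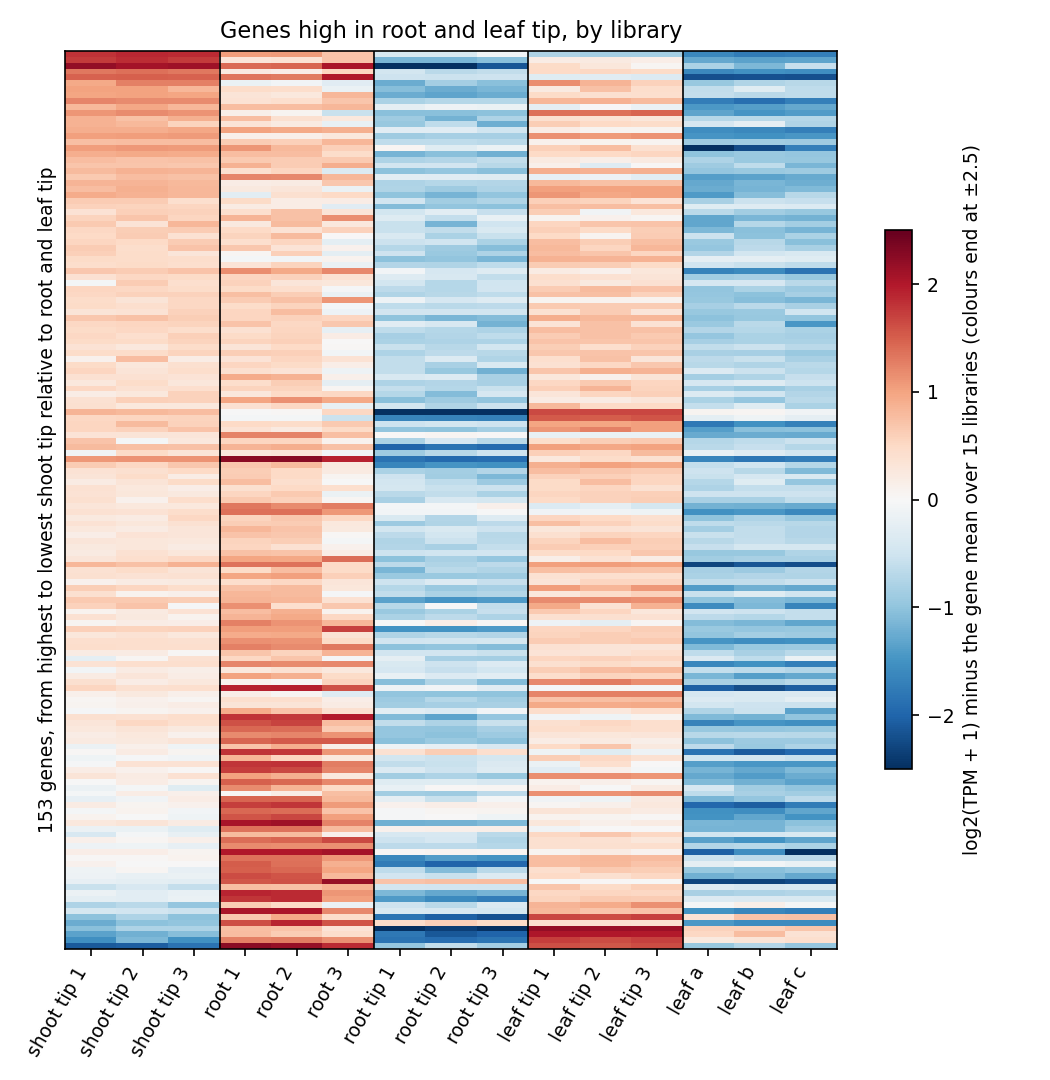
Each row is 1 of the 153 members and each column 1 of the 15 libraries. Colour gives log2(TPM + 1) minus the gene's mean over all libraries, and rows run from the highest to the lowest shoot tip relative to root and leaf tip. Root tip and leaf are blue in nearly all rows, shoot tip is red or pale in the upper and middle rows and blue in the lowest, and root replicate 3 is paler than the other root libraries in most rows.

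The most abundant member was RO_TRINITY_DN16637_c0_g1. It had 536.46, 538.43 and 532.12 TPM in shoot tip, 886.91, 875.41 and 555.90 TPM in root against 289.04, 290.43 and 296.65 TPM in root tip, and 619.11, 618.83 and 635.38 TPM in leaf tip against 143.92, 135.82 and 140.26 TPM in leaf. No tissue of a compared pair overlapped the other, and root replicate 3 was the low root library. It accounted for part of the members' share of RNA, which without it came to 0.321% ± 0.0017 for shoot tip, 0.426% ± 0.024 for root against 0.133% ± 0.0010 for root tip, and 0.331% ± 0.0011 for leaf tip against 0.111% ± 0.0013 for leaf.

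In the next 2 members by level, shoot tip lay at the level of leaf tip. RO_TRINITY_DN2977_c0_g1 had 140.60, 137.01 and 138.22 TPM in shoot tip, 211.52, 218.19 and 160.16 TPM in root against 55.22, 55.17 and 57.14 TPM in root tip, and 139.09, 143.11 and 142.74 TPM in leaf tip against 60.96, 63.47 and 62.84 TPM in leaf. The shoot tip and leaf tip libraries overlapped. RO_TRINITY_DN7580_c0_g1 had 128.87, 125.13 and 128.03 TPM in shoot tip, 177.24, 177.41 and 279.31 TPM in root against 29.43, 29.57 and 31.42 TPM in root tip, and 123.70, 123.88 and 131.14 TPM in leaf tip against 44.53, 43.30 and 43.94 TPM in leaf. Here root replicate 3 was the high root library, opposite to the 2 genes before it.

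The ratios that chose the members were modest for most of them. Root over root tip had a median of 2.63 and reached 64.9, and leaf tip over leaf had a median of 2.93 and reached 27.5. Both ratios were under 3 in 53 genes, both were at least 3 in 30 and both were at least 4 in 11, while 0 genes had both at 8 or more. The ratio was the larger in leaf for 89 genes and in root for 64. Across the 153 members the log2 ratios of the 2 organs were nearly unrelated, with r = 0.06 and rho = 0.12, a description of genes that share the same libraries and were cut at the same minimum.

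How many genes met the rule depended on how the libraries were scaled. Of the 153 members, 43 (28.1%) also met it under both median-ratio scaling and quantile normalization of the libraries. After median-ratio scaling 57 genes met it in all, 43 of them members, and after quantile normalization 95 did, 72 of them members. The ratio of leaf tip to leaf failed in 96 members under the first and in 75 under the second, while the ratio of root to root tip failed in 0 under either. On log2(TPM + 1) these scalings moved the median difference of leaf tip minus leaf over all tested genes by -0.41 and -0.35. Median-ratio scaling divided the leaf tip libraries by 1.22, 1.21 and 1.22 and the leaf libraries by 0.735, 0.747 and 0.716. The ratios of the rule have no pseudocount, so on the log2 scale they fell by more than -0.41 under it. In the 43 genes leaf tip over leaf had a median of 4.27 and was at least 3.33, and root over root tip had a median of 2.68.

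**Figure D2:**
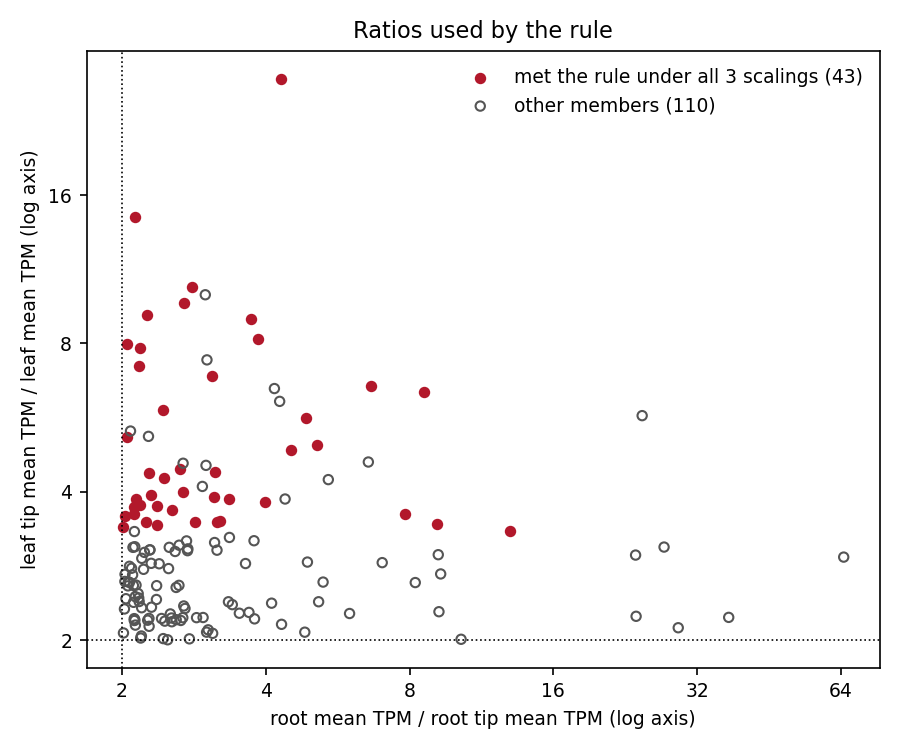
Each point is a member, with root mean over root tip mean on the horizontal axis and leaf tip mean over leaf mean on the vertical axis, both log axes. Dotted lines mark the minimum of 2. Filled points are the 43 genes that met the rule under all 3 scalings, and open points are the other 110, most of them near the lower line.

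RO_TRINITY_DN19575_c0_g1 and LE_TRINITY_DN24575_c0_g1 had the highest smaller ratio of the 2 organs when ratios were taken on log2(mean TPM + 1), which shrinks those of low genes. RO_TRINITY_DN19575_c0_g1 had 1.97, 2.09 and 2.57 TPM in shoot tip, 60.04, 56.56 and 45.78 TPM in root against 5.52, 7.36 and 6.08 TPM in root tip, and 38.36, 36.82 and 38.60 TPM in leaf tip against 5.66, 6.66 and 5.53 TPM in leaf. Its RNA was thus concentrated in root and leaf tip, with shoot tip the lowest tissue of all. LE_TRINITY_DN24575_c0_g1 had 17.84, 17.47 and 16.72 TPM in shoot tip, 104.02, 104.94 and 57.61 TPM in root against 18.68, 18.47 and 17.82 TPM in root tip, and 43.60, 40.44 and 41.14 TPM in leaf tip against 8.12, 7.25 and 6.80 TPM in leaf. In this gene shoot tip lay beside root tip. Without the pseudocount the highest smaller ratio was that of SHA_TRINITY_DN1470_c0_g1, added after its values were seen, with root at 6.63 times root tip and leaf tip at 6.56 times leaf. It had 9.27, 9.31 and 8.99 TPM in shoot tip, 10.84, 10.66 and 7.48 TPM in root against 1.58, 1.35 and 1.44 TPM in root tip, and 13.91, 13.92 and 13.54 TPM in leaf tip against 2.26, 2.09 and 1.96 TPM in leaf. Shoot tip lay within the range of the root libraries and below all leaf tip libraries.

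No member reached 10-fold in both organs. Root was at least 10 times root tip in 9 members and leaf tip at least 10 times leaf in 4. The steepest in root, RO_TRINITY_DN3285_c0_g1, was chosen here after its values were seen. It had 0.42, 0.87 and 0.43 TPM in shoot tip, 8.88, 9.02 and 8.05 TPM in root against 0.14, 0.10 and 0.16 TPM in root tip, and 12.57, 11.73 and 12.36 TPM in leaf tip against 3.83, 4.15 and 4.45 TPM in leaf. Shoot tip and root tip were below 1 TPM in all their libraries. The steepest in leaf, RO_TRINITY_DN10317_c6_g3, also picked from its values, had 11.05, 10.34 and 11.45 TPM in shoot tip, 16.43, 16.51 and 8.60 TPM in root against 3.31, 3.05 and 3.31 TPM in root tip, and 12.92, 12.98 and 12.65 TPM in leaf tip against 0.39, 0.54 and 0.47 TPM in leaf. Leaf was under 1 TPM in all 3 libraries and did not overlap any other tissue.

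A mean of at least 1 TPM in all 5 tissues was found for 140 members (91.5%). The rule itself asked for 5 TPM in root and leaf tip, and among the 12244 other genes that met its level, balance and spread conditions the share was 99.6%. Root tip averaged under 1 TPM in 6 members and leaf in 7, and 0 members were under 1 TPM in both. A value of 0 was listed in at least 1 library for 2 members, and no member was listed at 0 in all root tip or all leaf libraries.

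The weakest root difference was that of replicate 3. Root replicate 3 alone was at least 2 times the root tip mean in 97 of 153 members, against 147 for replicate 1 and 148 for replicate 2, although all 3 libraries were above the root tip mean in every member. The leaf tip libraries were at least 2 times the leaf mean in 147, 144 and 149 members. When root replicate 3 was left out, 221 genes met the rule, 148 of them members.

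**Figure D3:**
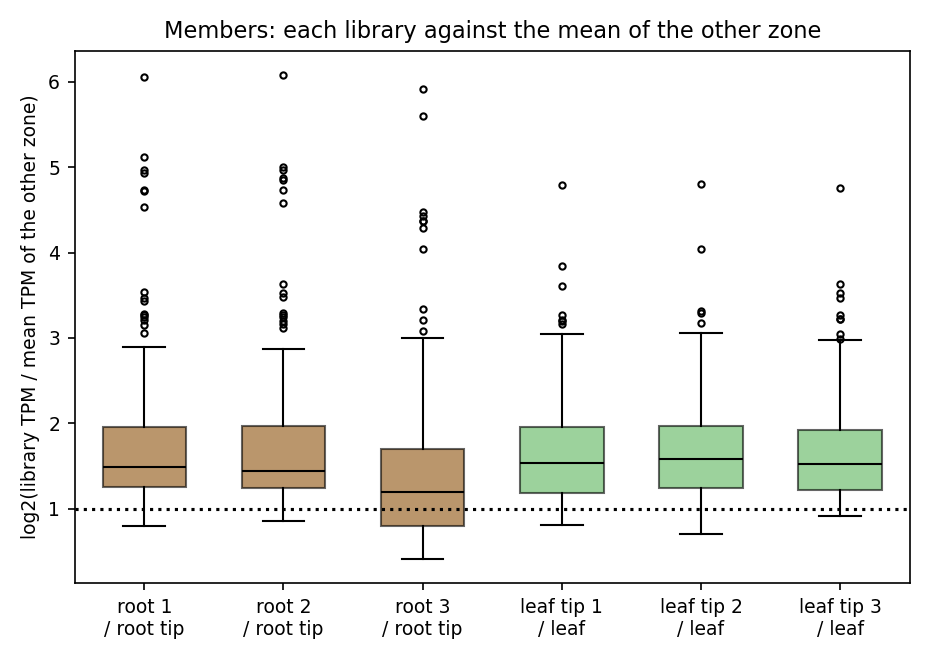
Boxes show, for the 153 members, log2 of the TPM in 1 library over the mean of the other zone of the same organ (root tip for the root libraries, leaf for the leaf tip libraries). The box spans the quartiles with the median as a line, whiskers reach 1.5 times the box height and circles are genes beyond them. The dotted line is the minimum of 2-fold, and the box of root replicate 3 crosses it while the other 5 boxes lie above it.

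The shoot tip was the one tissue that the rule did not use. Its mean TPM lay within 2-fold of leaf tip in 136 members (88.9%) and within 2-fold of root in 111 (72.5%). All tested genes had shares of 78.8% for leaf tip and 44.3% for root, and the 12244 genes with the same level conditions had 97.1% and 73.3%, so the members were no more often close to these tissues than those genes. Shoot tip lay within 2-fold of root tip in 43 members (28.1%) and of leaf in 29 (19.0%), against 92.6% and 62.5% of those 12244 genes, and root tip and leaf had been chosen as low. In the order of the 5 tissue means from the highest, shoot tip had rank 2 in 60 members and rank 3 in 59. Thus 77.8% of the members had it there, against 59.1% of all tested genes and 61.4% of the genes with the same level conditions. The rule put root and leaf tip high and root tip and leaf low, so a shoot tip level between them takes a middle rank. The ranks are therefore not independent of the choice of members. Shoot tip was the highest tissue in 20 members, at rank 4 in 11 and the lowest in 3. After median-ratio scaling of the libraries it had rank 2 or 3 in 117 members, after quantile normalization in 116, and without root replicate 3 in 120.

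Against leaf tip, the shoot tip level was tested with limma on log2(TPM + 1), and a gene was called when the Benjamini-Hochberg adjusted p over all tested genes was under 0.05 and the difference at least 2-fold. Leaf tip had been selected as high by the rule, and so the direction is not independent of the choice of members. Shoot tip was higher than leaf tip in 4 members (2.61%, where 6.35% of all tested genes were called) and lower in 11 (7.19%, where 2.32% of all were called), and 138 were not called. With a pseudocount of 5 in place of 1, 4 members were higher and 7 lower, where 871 and 419 of the 39490 tested genes were called. The median log2 difference was -0.18, against 0.03 over all tested genes (differences of log2(mean TPM + 1)).

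The 2 members with the highest shoot tip relative to leaf tip had higher TPM in shoot tip than in any other tissue. SHA_TRINITY_DN100226_c0_g1 had 58.52, 62.45 and 61.26 TPM in shoot tip, 34.15, 34.81 and 27.02 TPM in root against 12.11, 12.04 and 15.19 TPM in root tip, and 8.99, 8.50 and 8.45 TPM in leaf tip against 4.58, 4.06 and 4.23 TPM in leaf. Shoot tip was 2.68 higher than leaf tip on the log2 scale (SE 0.096, limma adjusted p = 5.5e-11), and the libraries did not overlap. SHA_TRINITY_DN8598_c0_g1 had 98.34, 90.66 and 92.51 TPM in shoot tip, 56.66, 58.16 and 88.27 TPM in root against 1.53, 0.00 and 3.92 TPM in root tip, and 28.94, 25.25 and 21.26 TPM in leaf tip against 11.51, 8.89 and 13.50 TPM in leaf. Its difference to leaf tip was 1.87 (SE 0.41, limma adjusted p = 0.0019), a call that was lost with a pseudocount of 0.1 (1.91, limma adjusted p = 0.115). The fit takes 1 spread per gene from all 5 tissues, so this SE includes the spread of the root tip libraries, of which 1 was listed at 0. The shoot tip and leaf tip libraries of this gene did not overlap. The other 2 called members were RO_TRINITY_DN6525_c0_g2 and RT_TRINITY_DN137_c2_g1, at 1.79 and 1.58.

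In the opposite direction, shoot tip was far below leaf tip in a few members. RO_TRINITY_DN19575_c0_g1, whose values are given above, was 3.60 lower in shoot tip than in leaf tip on the log2 scale (SE 0.11, log2 fold change -3.60, limma adjusted p = 1.4e-11). LA_TRINITY_DN1119_c0_g1 had 0.96, 1.17 and 1.39 TPM in shoot tip, 7.47, 6.72 and 5.79 TPM in root against 0.45, 0.14 and 0.25 TPM in root tip, and 19.15, 18.88 and 18.54 TPM in leaf tip against 6.09, 7.53 and 5.38 TPM in leaf. In shoot tip against leaf tip its log2 fold change was -3.20 (SE 0.13, limma adjusted p = 1.4e-10). Root and leaf overlapped in this gene, so that leaf tip alone stood above the rest.

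Against root, shoot tip was higher in 4 members (2.61%, where 25.4% of all tested genes were called) and lower in 34 (22.2%, where 16.8% of all were called). Root had also been chosen as high. The median log2 difference was -0.18, against 0.28 over all tested genes. Without root replicate 3, 39 members were lower, where 6730 of the 39490 tested genes were called, and the members' median was -0.25. Median-ratio scaling shifted the median over all tested genes by -0.27, a shift that the pseudocount makes smaller for low genes. Under this scaling 0 members were higher and 46 lower, where 7329 and 8324 of all were called, and the members' median was -0.52. With a pseudocount of 5, 2 members were higher, where 5464 of all were called.

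RT_TRINITY_DN137_c2_g1 had 81.34, 87.11 and 80.99 TPM in shoot tip, 29.15, 30.41 and 39.07 TPM in root against 10.10, 10.15 and 10.95 TPM in root tip, and 26.81, 27.80 and 26.66 TPM in leaf tip against 9.14, 8.75 and 8.79 TPM in leaf. Shoot tip was highest, root and leaf tip were close to each other, and root tip and leaf were lowest. The gene had a log2 fold change of 1.32 in shoot tip against root (SE 0.082, limma adjusted p = 2.3e-09), and 0.94 after median-ratio scaling, under the 2-fold minimum. SHA_TRINITY_DN2231_c0_g1 had 13.23, 16.65 and 16.69 TPM in shoot tip, 5.60, 5.99 and 5.05 TPM in root against 2.12, 3.08 and 2.58 TPM in root tip, and 15.52, 12.28 and 10.01 TPM in leaf tip against 2.82, 3.40 and 3.54 TPM in leaf. Here the log2 fold change was 1.33 (SE 0.15, limma adjusted p = 1.2e-06), and it was under the 2-fold minimum at 0.97 after median-ratio scaling and at 0.96 with a pseudocount of 5. The other 2 members called higher in shoot tip than in root were RT_TRINITY_DN10040_c0_g1 and RO_TRINITY_DN7993_c0_g5, at 1.26 and 1.03.

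Among members lower in shoot tip than in root, RO_TRINITY_DN19575_c0_g1 had the lowest log2 fold change, -4.10 (SE 0.11, limma adjusted p = 2.7e-13). RT_TRINITY_DN3307_c0_g1 had 1.86, 2.29 and 2.39 TPM in shoot tip, 19.55, 24.22 and 19.08 TPM in root against 8.19, 9.22 and 8.35 TPM in root tip, and 7.92, 7.90 and 7.71 TPM in leaf tip against 1.48, 1.26 and 1.27 TPM in leaf. Both root zones stood above shoot tip, and leaf tip lay just below root tip. In shoot tip against root its log2 fold change was -2.78 (SE 0.094, limma adjusted p = 2.6e-12).

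**Figure D4:**
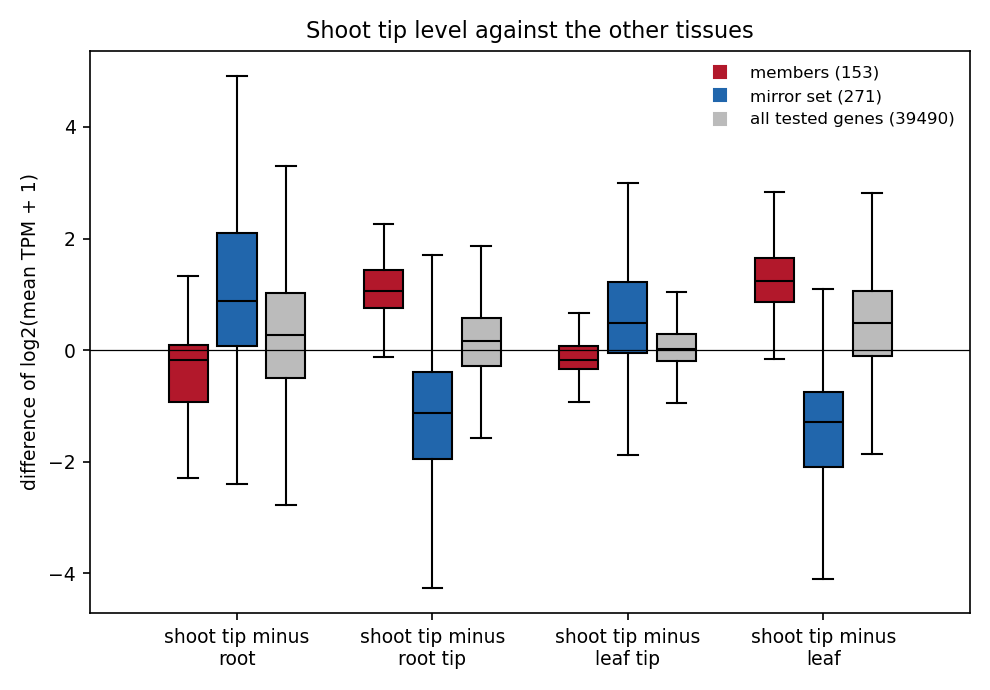
Boxes show the difference of log2(mean TPM + 1) between shoot tip and each of the other tissues, for the 153 members, the 271 genes of the mirror set and all 39490 tested genes. The box spans the quartiles with the median as a line, whiskers reach 1.5 times the box height and points beyond are not drawn. Members have medians of -0.18 for root and for leaf tip, 1.07 for root tip and 1.25 for leaf.

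Against the tissues that were low by the rule, shoot tip was mostly higher. It was higher than root tip in 82 members (53.6%, where 11.2% of all tested genes were called) and lower in 2 (1.31%, where 9.54% of all were called). The median log2 difference was 1.07, against 0.17 over all tested genes. With median-ratio scaling, whose shift of the all-gene median was -0.18, 53 members were higher, where 3197 of the 39490 tested genes were called. With a pseudocount of 5 the counts were 41 higher and 0 lower, where 1790 and 2091 of all were called. Root tip had been chosen as low relative to root, so these counts too are not independent of the choice.

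The 2 largest differences to root tip were found in genes that root tip held at under 2 TPM on average. SHA_TRINITY_DN8598_c0_g1, given above, had a log2 fold change of 5.35 in shoot tip against root tip (SE 0.41, limma adjusted p = 4.7e-08). SHA_TRINITY_DN13336_c0_g1 had 23.15, 22.38 and 21.82 TPM in shoot tip, 12.25, 12.73 and 18.21 TPM in root against 1.19, 0.98 and 1.15 TPM in root tip, and 41.21, 41.72 and 41.78 TPM in leaf tip against 13.00, 12.89 and 11.59 TPM in leaf. Leaf tip was highest here, shoot tip came next, and only root tip was near 1 TPM. Its log2 fold change was 3.48 (SE 0.11, limma adjusted p = 4.1e-12). The 2 members lower in shoot tip than in root tip were RO_TRINITY_DN19575_c0_g1 and RT_TRINITY_DN3307_c0_g1, at -1.19 and -1.59, both with under 10 TPM in either tissue.

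Shoot tip was higher than leaf in 99 members (64.7%, where 26.8% of all tested genes were called) and lower in 5 (3.27%, where 10.3% of all were called), with leaf chosen as low relative to leaf tip. The median log2 difference was 1.25, against 0.48 over all tested genes. Under median-ratio scaling the all-gene median shifted by -0.46 and 42 members were higher, where 5642 of the 39490 tested genes were called. The members' median was then 0.62. That scaling divides a library by the same factor for every gene, and the pseudocount makes the shift smaller for low genes. Under quantile normalization the all-gene median shifted by -0.43 and 52 members were higher, where 6319 of all were called. With a pseudocount of 5, 54 members were higher and 0 lower, where 5270 and 2499 of all were called.

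RO_TRINITY_DN6525_c0_g2 had 195.82, 200.56 and 197.50 TPM in shoot tip, 179.28, 174.97 and 284.37 TPM in root against 48.65, 47.91 and 48.93 TPM in root tip, and 56.38, 57.34 and 55.41 TPM in leaf tip against 14.53, 14.67 and 14.52 TPM in leaf. Shoot tip and root were both above the other tissues, and root replicate 3 was the high one. Its log2 fold change in shoot tip against leaf was 3.68 (SE 0.13, limma adjusted p = 4.4e-12), and SHA_TRINITY_DN100226_c0_g1 followed with 3.55 (SE 0.096, limma adjusted p = 2.9e-13). At the other end, SHA_TRINITY_DN10006_c0_g1 had 2.96, 3.75 and 3.79 TPM in shoot tip, 12.77, 12.26 and 9.35 TPM in root against 0.34, 0.60 and 0.32 TPM in root tip, and 36.23, 35.35 and 34.59 TPM in leaf tip against 11.14, 11.09 and 12.12 TPM in leaf. Root and leaf were alike in level in this gene, and shoot tip lay between them and root tip. Its log2 fold change in shoot tip against leaf was -1.47 (SE 0.11, limma adjusted p = 2.6e-08), and -0.95 with a pseudocount of 5, under the 2-fold minimum.

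The 5 members lower in shoot tip than in leaf were RO_TRINITY_DN19575_c0_g1, SHA_TRINITY_DN10006_c0_g1, RO_TRINITY_DN3285_c0_g1, SHA_TRINITY_DN2830_c0_g1 and LA_TRINITY_DN1119_c0_g1, and 0 of these calls remained with a pseudocount of 5. Their shoot tip means were 2.21, 3.50, 0.573, 1.78 and 1.17 TPM, and their leaf means 5.95, 11.4, 4.14, 7.15 and 6.33 TPM. In the last 4 of them leaf tip was the highest tissue and root tip the lowest, at a mean of 0.133 to 0.42 TPM.

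Root tip and leaf, the low tissues, were set against each other directly by no part of the rule. They were linked through it, since root had to be at least 2 times root tip and leaf tip at least 2 times leaf. Root and leaf tip also had to lie within 4-fold, so these counts are not independent of the choice of members either. Root tip was higher than leaf in 27 members (17.6%, where 23.3% of all tested genes were called) and lower in 10 (6.54%, where 10.4% of all were called). The median log2 difference was 0.12, against 0.30 over all tested genes. The balance shifted with scaling, over all tested genes as well as in the members. As deposited, 9213 of the 39490 tested genes were called higher and 4123 lower. Median-ratio scaling, with a shift of -0.28 in the all-gene median, gave 14 members higher and 17 lower, where 6345 and 5997 of all were called. Quantile normalization gave 11 members higher and 17 lower, where 6142 and 5783 of all were called. With a pseudocount of 5 there were 12 members higher and 6 lower, where 5033 and 2488 of all were called.

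LA_TRINITY_DN10390_c0_g1 had 42.93, 41.95 and 41.15 TPM in shoot tip, 147.63, 152.74 and 228.37 TPM in root against 82.69, 84.75 and 86.35 TPM in root tip, and 49.75, 51.12 and 49.62 TPM in leaf tip against 9.39, 9.19 and 9.74 TPM in leaf. Both root zones were above all parts of the shoot. In root tip against leaf its log2 fold change was 3.04 (SE 0.12, limma adjusted p = 1.2e-11). SHA_TRINITY_DN87720_c0_g1 had 8.38, 9.55 and 8.64 TPM in shoot tip, 31.38, 30.30 and 18.84 TPM in root against 11.02, 13.05 and 11.37 TPM in root tip, and 7.57, 6.44 and 7.45 TPM in leaf tip against 1.57, 1.17 and 1.40 TPM in leaf. Its log2 fold change was 2.43 (SE 0.15, limma adjusted p = 2.9e-09). In the other direction, SHA_TRINITY_DN10006_c0_g1 and SHA_TRINITY_DN13336_c0_g1 had log2 fold changes of -3.14 (SE 0.11, limma adjusted p = 6.3e-12) and -2.68 (SE 0.11, limma adjusted p = 2.4e-11) in root tip against leaf.

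**Figure D5:**
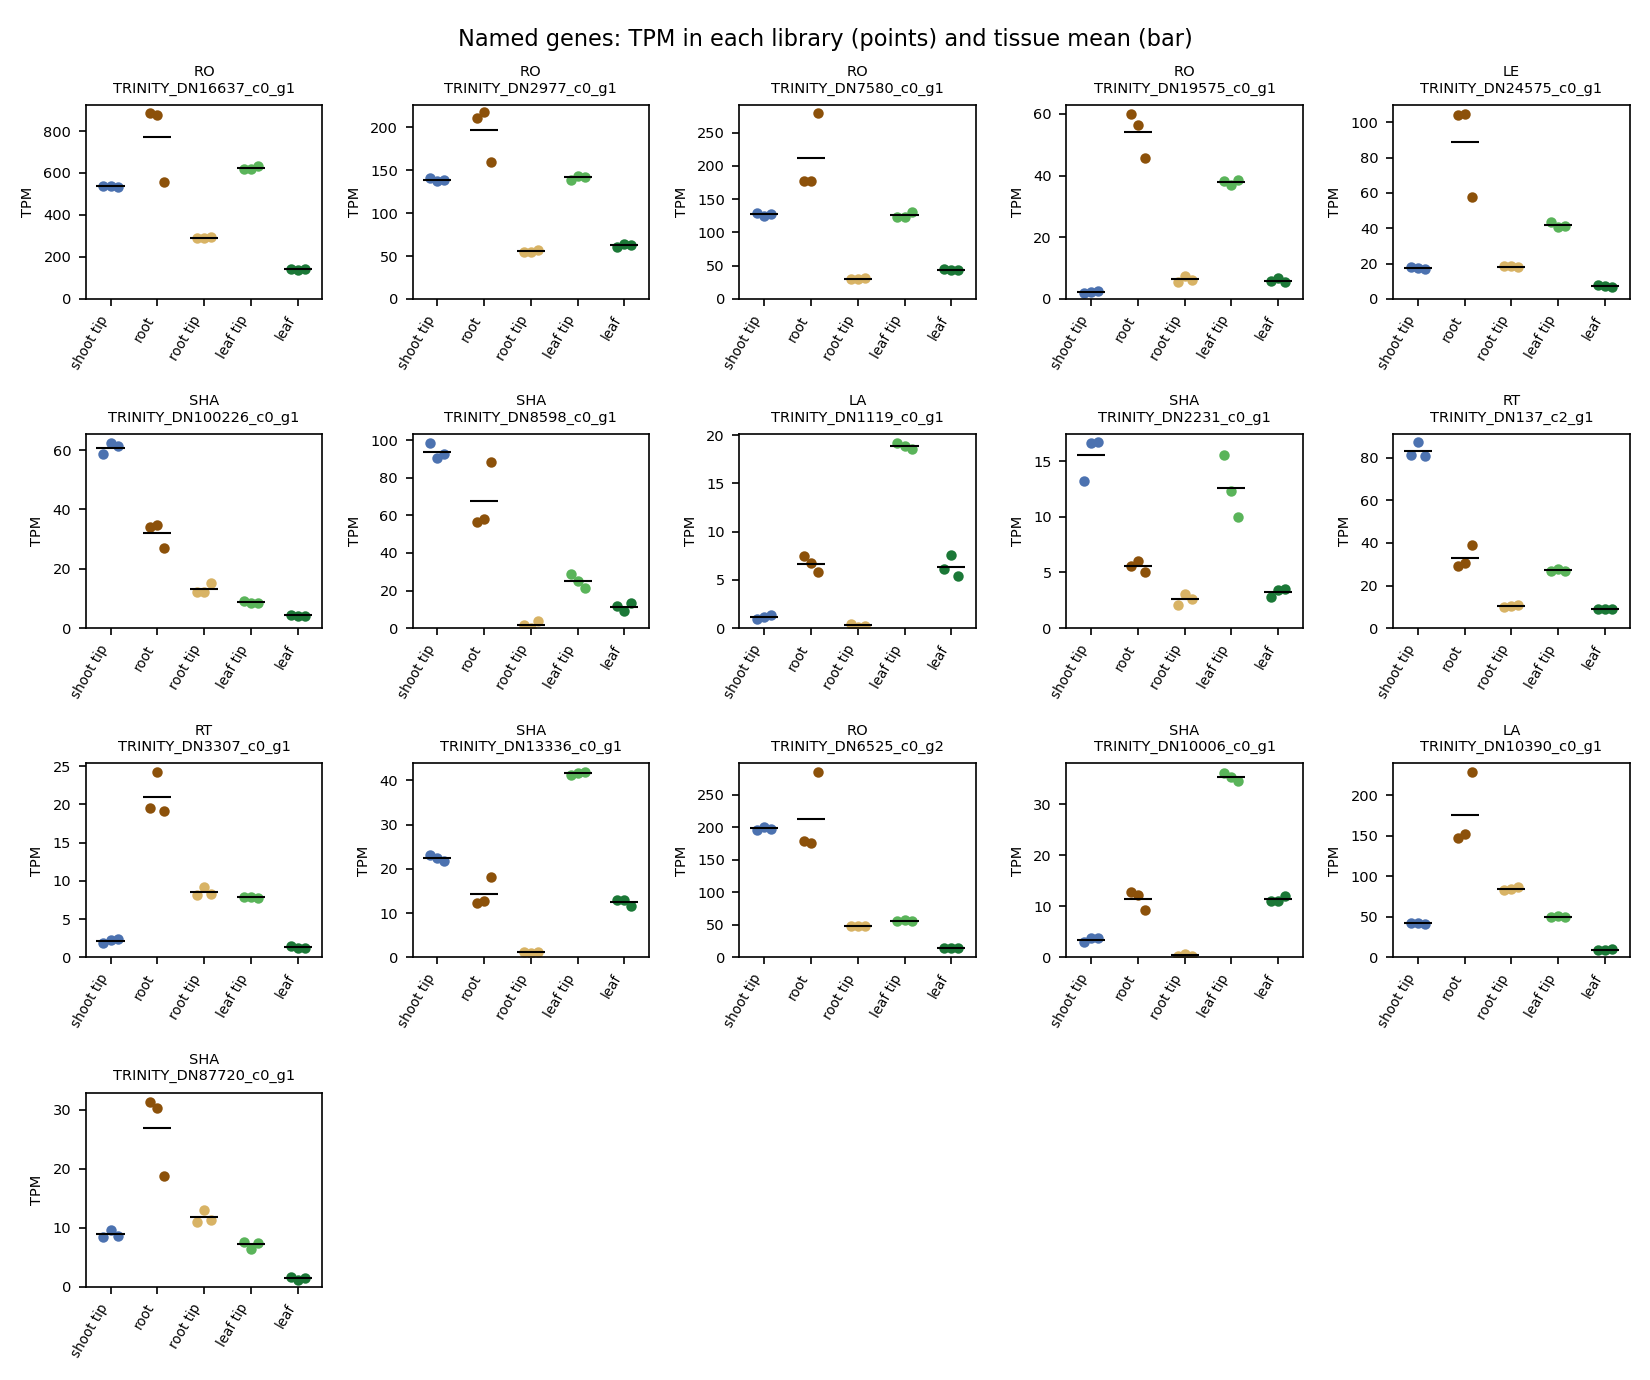
TPM on a linear axis in every library (points) and the tissue mean (bar) for the 16 genes named by fixed rules, in the order shoot tip, root, root tip, leaf tip and leaf. Libraries of a tissue mostly lie close together, apart from the leaf tip and shoot tip of SHA_TRINITY_DN2231_c0_g1 and from root, where replicate 3, the rightmost root point, is above the others in RO_TRINITY_DN7580_c0_g1 and below them in RO_TRINITY_DN16637_c0_g1.

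Abundance in shoot tip went with abundance in the other tissues. Across the 153 members, shoot tip on the log2 scale correlated with leaf tip at r = 0.80 (rho = 0.80), with root tip at 0.80 (0.74), with root at 0.79 (0.76) and with leaf at 0.75 (0.72). These are correlations across genes that share libraries, and the overall abundance of each gene enters all of them. Root and leaf tip were within 2-fold of each other in 115 members, root was more than 2 times leaf tip in 29, and leaf tip more than 2 times root in 9. The most frequent order of the 5 means, in 23 members, was root, leaf tip, shoot tip, root tip and leaf. Leaf tip, shoot tip and root in that order led in another 16 members with leaf at rank 4 and in 16 with root tip at rank 4.

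The mirror rule, with root tip and leaf high and root and leaf tip low, was met by 271 genes. Shoot tip stood differently in the 2 sets, as a description with no test. Root and leaf tip were chosen as high in the members and as low in the mirror set. The distances and ranks are therefore not independent of the choice of genes. Its distance to leaf tip was under 2-fold in 88.9% of members and in 52.8% of mirror genes, and its median level was 11.8 TPM in members, near their root and leaf tip, against 9.17 TPM in mirror genes, whose medians were 20.1 TPM in root tip and 22.8 TPM in leaf, 3.30 TPM in root and 5.15 TPM in leaf tip. Shoot tip had rank 2 or 3 in 77.8% of members and in 56.1% of mirror genes, and rank 4 or 5 in 14 members and 110 mirror genes.

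Genes that met the level, balance and spread conditions but only 1 of the 2 ratios were also set beside the members. In the 639 genes with the root ratio alone, shoot tip had a median log2 difference of 0.03 to leaf tip and -1.05 to root. In the 3369 genes with the leaf tip ratio alone these were -0.08 and 0.92. The members, with both ratios, had -0.18 to both tissues. Shoot tip was within 2-fold of leaf tip in 92.2% of the genes with the root ratio alone and in 98.6% of those with the leaf tip ratio alone, both above the 88.9% of members. It had rank 2 or 3 in 47.6% and 73.9% of these sets, against 77.8% of members. All these sets were chosen by tissue levels, so the ranks are not independent of the choice.

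Each identifier begins with letters that are also used as a tissue code. Among members 56 (36.6%) had the root prefix, 35 (22.9%) the leaf tip prefix, 26 (17.0%) the shoot tip prefix, 21 (13.7%) the root tip prefix and 15 (9.80%) the leaf prefix. In all tested genes these shares were 22.0%, 24.4%, 21.9%, 17.9% and 13.8%. The mirror set had 8.12% with the root prefix, 29.5% with the root tip prefix and 29.9% with the leaf prefix. Which tissue an identifier was assembled from is no measurement of its level, and its part in the results was not tested.

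Identifiers with the same prefix and DN number were treated here as 1 group. The c number that follows was not used, so some partners differ from the member in it, and shared sequence was not checked. Such a partner in the same group was found for 30 members (19.6%, against 21.8% of all tested genes), and 0 members shared a group with another member. Of their 44 partners, 22 averaged at least 5 TPM in some tissue. Both ratios were 2 or more in 1 of the 22 (4.55%) and 0.5 or less in 1 (4.55%), against 2.37% and 3.10% of all tested genes that averaged at least 5 TPM in some tissue. The first was RO_TRINITY_DN2150_c0_g1, with means of 67.9 TPM in root and 9.68 TPM in root tip, and 0.33 TPM in leaf tip and 0.157 TPM in leaf. The second was LE_TRINITY_DN4431_c0_g1, with 7.77 TPM in root and 40.6 TPM in root tip, and 0.0333 TPM in leaf tip and 190.5 TPM in leaf. Nearest to the rule at higher levels was LE_TRINITY_DN2519_c1_g1, with 98.6 TPM in root and 51.2 TPM in root tip (a ratio of 1.93), and 123.3 TPM in leaf tip and 43.9 TPM in leaf (a ratio of 2.81). These 3 genes were singled out after their values were seen. The member in the group of the first is RO_TRINITY_DN2150_c0_g2, and that in the group of the second is LE_TRINITY_DN4431_c0_g4. Whether reads are split between such partners cannot be told from the table, and single values of these 30 members are uncertain for that reason. Partners were sought only under the same prefix. Sequence shared between identifiers of different prefixes cannot be seen here, so the other members may be affected as well.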

How the data were processed

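RNA of 15 libraries, 3 from each of 5 tissues of Ceratopteris richardii sporophytes, was deposited by the authors as 1 table of TPM for 88641 genes. Per the submitters' processing notes the tools were RSEM 1.3.2, Bowtie2 2.3.4.3 and Trim Galore 0.5.0. Settings, the assembly step and the read depth are not given in the sources used here. Because TPM adds up to 1000000 per library (within rounding), depth is unknown and no counting interval could be given. TPM is relative: a few very abundant genes in a library lower the values of all others, so other scalings were tried.

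The members and lists were chosen with earlier results of these data known. The 39490 genes that reached 1 TPM in 3 or more libraries were tested on log2(TPM + 1). The linear model of limma 3.58.1 (R 4.3.3) had an intensity trend, 1 mean per tissue and 10 residual degrees of freedom. The SE of a gene thus draws on the spread in all 5 tissues, also those outside the comparison. Fold changes of low genes are understated because of the pseudocount of 1. The 5 comparisons of shoot tip with the other tissues and of root tip with leaf were tested, with Benjamini-Hochberg adjustment over all tested genes. Root against root tip, leaf tip against leaf and root against leaf tip were used by the rule and not tested. The fit was tested on simulated data whose noise had 1 SD per gene in all libraries. That simulation does not cover an uneven library such as root replicate 3. Named genes were the 3 most abundant members, the 2 with the highest smaller ratio on log2(mean TPM + 1), and for each comparison up to 2 called members per direction with the largest difference, no overlap and at least 10 TPM in the higher tissue. Others are said to be chosen from their values. Errors after ± are SDs between libraries and SE is that of a fitted difference. Python 3.11.15 with matplotlib 3.10.9 drew the figures.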

Additional observations from a re-analysis of the deposited data

How the results depend on the processing

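The number of genes that met the rule (153) became 57 after median-ratio scaling, 95 after quantile normalization, 30 with a minimum ratio of 3 and 91 with a minimum mean of 10 TPM. It was 108 with a pseudocount of 1 in the ratios, 180 with no limit on root over leaf tip and 186 with no root spread condition. Leaving out 1 library at a time gave 131 to 221, the highest without root replicate 3. For the fixed 153 members, leaving out 1 library moved no count of calls by over 1.5 times. The median log2 difference of shoot tip minus leaf tip was -0.18 to -0.17 when 1 library was left out, -0.17 after median-ratio scaling, -0.22 after quantile normalization, -0.20 with a pseudocount of 0.1 and -0.16 with one of 5. That of shoot tip minus root was -0.25 to -0.16 when 1 library was left out, -0.52 after median-ratio scaling, -0.45 after quantile normalization and -0.12 with a pseudocount of 5.

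With a pseudocount of 5, which shrinks the differences of low genes, 7 members were lower in shoot tip than in leaf tip, 2 were higher than in root, 41 were higher and 0 lower than in root tip, and 54 were higher and 0 lower than in leaf. In root tip against leaf this gave 12 higher and 6 lower. Median-ratio scaling gave 0 members higher in shoot tip than in root, 53 higher than in root tip and 42 higher than in leaf, and quantile normalization 52 higher than in leaf. For root tip against leaf the scalings gave 14 and 11 higher and 17 and 17 lower. These settings also changed the counts over all tested genes, given with each comparison above. Beyond the scaling of the libraries and the pseudocount, the cause of these changes was not tested. All other counts of calls were within 1.5 times the reported ones without a filter, with genes averaging 5 TPM or more, without the intensity trend, with array quality weights and in a fit of the 2 tissues alone. Of 428 combinations of a named gene's comparison and an alternative, 423 kept their call and direction, 5 lost the call and 0 reversed. These concern calls, not membership. Of the 16 genes named by fixed rules, 6 also met the rule under both other scalings. They were RO_TRINITY_DN16637_c0_g1, RO_TRINITY_DN19575_c0_g1, LE_TRINITY_DN24575_c0_g1, SHA_TRINITY_DN2231_c0_g1, RT_TRINITY_DN3307_c0_g1 and SHA_TRINITY_DN13336_c0_g1.

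Replicate numbers did not pair the samples. Deviations from the tissue mean of libraries with the same number correlated at -0.015 to 0.024 over 18 pairs. With the replicate block, fitted without the leaf libraries because their columns carry no number, shoot tip was higher in 4 and lower in 11 members than leaf tip, higher in 4 and lower in 34 than root, and higher in 82 and lower in 2 than root tip, which are also the counts without the block, with the leaf libraries and without them (the fit without them was chosen after seeing the data). Depth is unknown, so the precision of low values cannot be stated.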
